A study of Mus musculus with 6 samples.

Results

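The genes of respiratory complex II, complex III, cytochrome c and the ATP synthase were followed in whole hearts of mice given the drug trametinib, which blocks the kinases MEK1 and MEK2, or vehicle. Members were taken by name: every gene of the expression table whose symbol begins with Atp5, Uqcr or Sdh, together with Cyc1, Cycs and Atpif1. This rule found 34 genes among the 21705 rows of the table. All 6 hearts came from wild-type female FVB mice aged 12 to 16 weeks. The 3 trametinib mice received 3 mg/kg once daily for 14 days, and the 3 vehicle mice received vehicle for 14 days (the column heading of the table names PBS). Each library is 1 heart, and polyadenylated RNA was sequenced with a stranded kit in single-end runs of 75 cycles.

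The unit is the authors' normalized signal, in which each library's estimated counts carry a scaling factor of their own. Totals lay between 21656431 and 22330993 in the trametinib hearts and between 21773496 and 22040876 in the vehicle hearts. The spacing of low values gave an estimated 23033856 to 24691501 reads per trametinib heart and 14304826 to 16046500 per vehicle heart. No member was listed at 0 in any heart. The members rested on at least 350 estimated reads each (Sdhaf1 in trametinib heart 3), and all 34 passed the filter of a mean value of at least 10. Either of 2 kits served for the RNA, and the kit used for each heart is not given in the sources used here.

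Complex II, succinate dehydrogenase, belongs both to the citric acid cycle and to the respiratory chain: it oxidises succinate to fumarate and passes the electrons to ubiquinone. Complex III, the cytochrome bc1 complex, takes electrons from ubiquinol, hands them to cytochrome c and moves protons out of the mitochondrial matrix. The ATP synthase lets protons flow back through a rotating ring of c subunits, and the rotation drives ATP formation in its catalytic head. The 34 genes followed here are nuclear and their proteins are imported into mitochondria. The heart, which contracts without pause, is among the tissues richest in these complexes.

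All 34 genes were lower in the trametinib hearts at an adjusted p below 0.05 and none was higher (limma on log2(value + 1), adjusted over all 13581 genes tested). Over all genes tested, 22.8% were lower and 21.6% higher. In 34 of 34 genes every trametinib value lay below every vehicle value and in none above. Over all genes tested, 29.5% had every trametinib value below and 27.0% every one above. The median log2 fold change of the 34 genes was -0.75, against -0.01 over all genes tested. Together the members made up 2.43%, 2.66% and 2.40% of the summed signal in trametinib hearts 1, 2 and 3, against 3.76%, 3.95% and 3.58% in vehicle hearts 1, 2 and 3. The means were 2.5% ± 0.14 in trametinib hearts and 3.76% ± 0.18 in vehicle hearts (SD, n = 3 each), so the difference was larger than the spread between hearts. Since whole hearts were used, fewer cells of a type and less RNA per cell cannot be told apart.

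**Figure D1:**
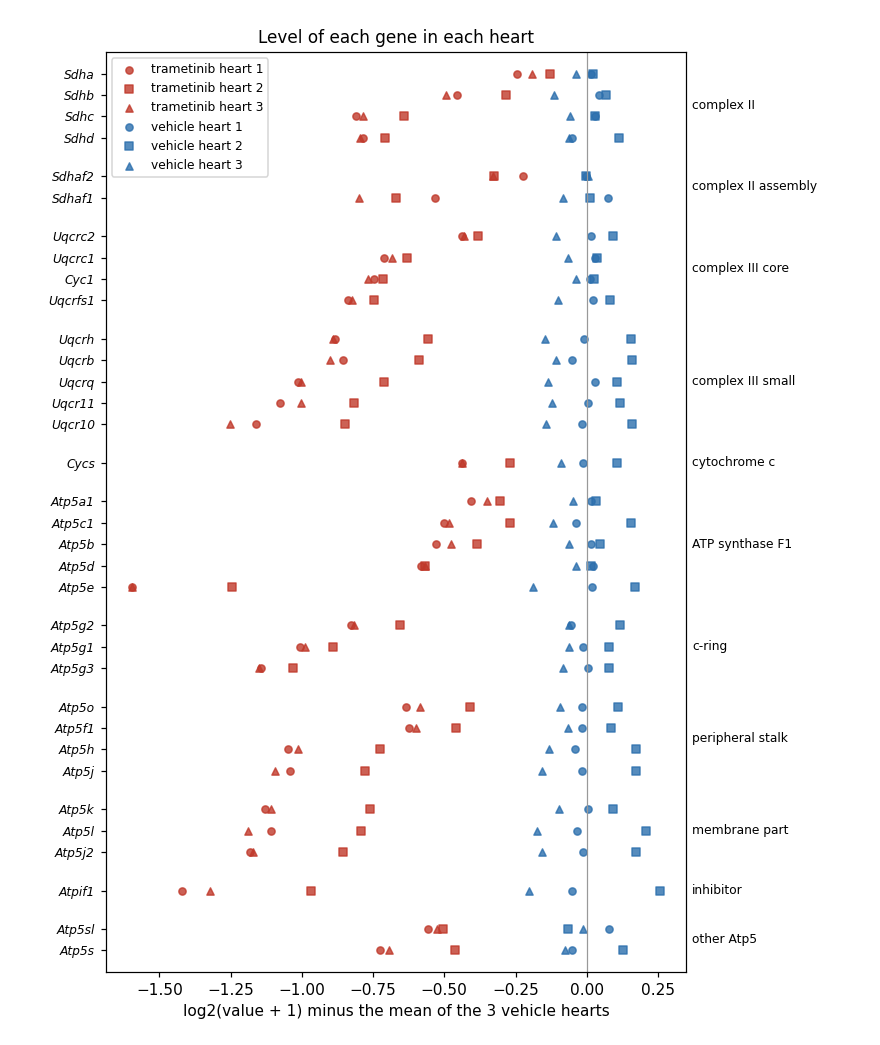
Level of each of the 34 genes in each heart, as log2(value + 1) minus the mean of the 3 vehicle hearts for that gene (x axis), with genes grouped by role down the page. Red symbols are trametinib hearts and blue symbols vehicle hearts, with 1 symbol shape per heart number, and no red symbol reaches the blue ones of its gene.

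The hearts of a group were ordered alike across the genes. Trametinib heart 2 had the highest value of its group in 32 of the 34 genes, and vehicle heart 2 had the highest value of its group in 30. The median distance from the vehicle mean was -0.80, -0.65 and -0.80 on the log2 scale in trametinib hearts 1, 2 and 3, against 0.00, 0.10 and -0.09 in vehicle hearts 1, 2 and 3. The gap between groups was thus several times the spread within either group.

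The sizes of the differences ran with transcript length. Across the 34 genes, Spearman's rho between the log2 fold change and the mean length of the gene's transcripts was 0.72, and across 13469 tested genes with a length it was 0.51 (genes of the same libraries, not independent replicates). The 17 members with transcripts of up to 1297 nucleotides had a median log2 fold change of -0.97, against -0.54 for all genes of that length, of which 66.0% were lower. The 17 longer members had a median of -0.56, against 0.04 for all longer genes, of which 17.1% were lower. After the trend with transcript length and GC content was taken out of every heart, 21 of the 34 genes were still lower and none was higher, with a median log2 fold change of -0.29 (4 genes stood above 0, with adjusted p of 0.363 or more). Over all genes, 13.9% were lower and 15.3% higher in that fit. With lengths taken over all coding transcripts instead, 20 of the 34 genes were lower, beside 15.5% lower and 17.9% higher over all genes. Of the 21, 7 were among the shorter members and 14 among the longer. The difference between hearts of 1 group ran with length too: trametinib heart 2 exceeded the other trametinib hearts by a median of 0.29 (log2) in the shorter members and by 0.09 in the longer ones, and vehicle heart 2 exceeded the other vehicle hearts by 0.24 and 0.07. Whether length itself carries the difference, or a property of these libraries that goes with length, was not tested. Differences of the 34 genes are therefore given before and after this correction.

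**Figure D2:**
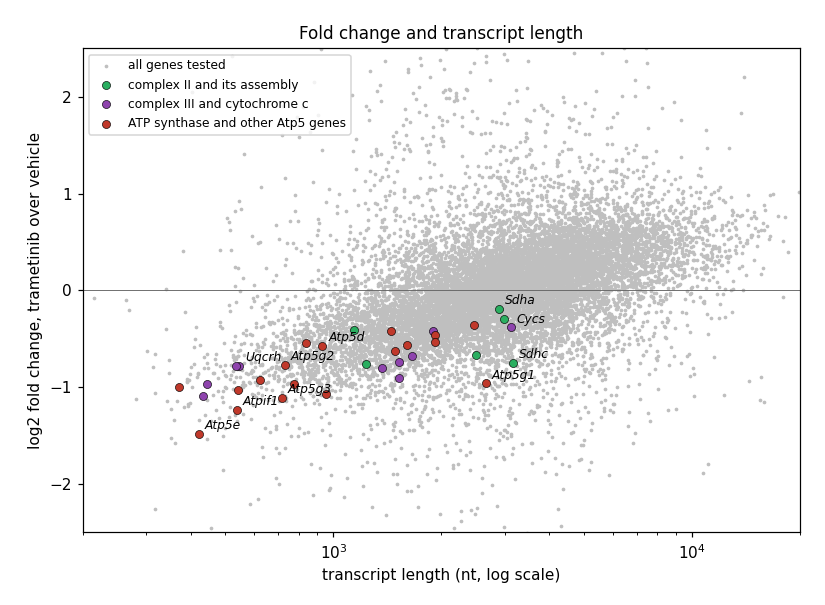
Log2 fold change, trametinib over vehicle (y axis), against mean transcript length in nucleotides on a log axis (x axis), with all tested genes inside the axes in grey and the 34 members coloured by complex. Short transcripts lie lower than long ones in grey and in colour, and the members of up to 1297 nucleotides have a median of -0.97, against -0.54 for all genes of that length.

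**Figure D3:**
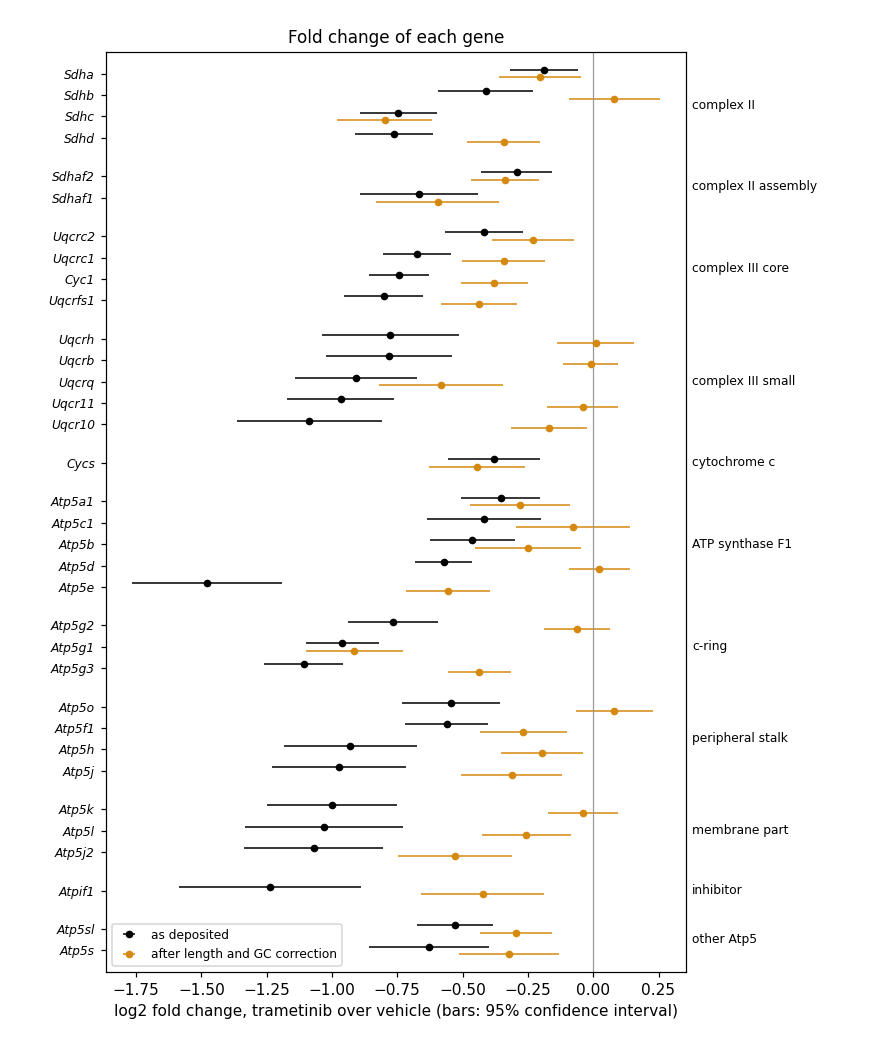
Log2 fold change of each member, trametinib over vehicle (x axis), as deposited (black) and after the correction for transcript length and GC content (orange), each point with its 95% confidence interval. All 34 black points lie below 0, and the orange points run from -0.91 for Atp5g1 to 0.081 for Sdhb and Atp5o.

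All 4 subunit genes of complex II were lower. Their median log2 fold change was -0.58 before and -0.27 after the correction. Sdhc and Sdhd encode the membrane anchors that hold the complex in the inner membrane. Sdhc had 9655, 10843 and 9820 in the trametinib hearts, against 17284, 17291 and 16242 in the vehicle hearts. Sdhd had 8549.5, 9034 and 8495 in the trametinib hearts, against 14239, 15954 and 14109.9 in the vehicle hearts. The groups were far apart in both genes, with log2 fold changes of -0.75 ± 0.06 for Sdhc (SE, adjusted p = 0.000283) and -0.76 ± 0.06 for Sdhd (adjusted p = 0.000283). After the correction Sdhc stood at -0.80 and Sdhd at -0.34, both still lower. A length of 3171 nucleotides sets the correction of Sdhc. With the mean of 1428 nucleotides over all coding transcripts, Sdhc stood at -0.54 and was still lower (adjusted p = 0.00206).

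Sdhb encodes the iron-sulfur subunit, which carries electrons from the flavin to ubiquinone. Its values were 15417, 17362 and 15033 in the trametinib hearts, against 21809, 22186 and 19554 in the vehicle hearts, a log2 fold change of -0.41 ± 0.08 (SE, adjusted p = 0.00444). After the correction Sdhb was at 0.081 (adjusted p = 0.445). Sdha, the flavoprotein subunit that binds succinate, had the smallest difference of all 34 genes. It had 27650.3, 29949 and 28731 in the trametinib hearts, against 33154, 33311 and 31913 in the vehicle hearts. The groups did not overlap, and the log2 fold change was -0.19 ± 0.06 (SE, adjusted p = 0.0271). After the correction Sdha was at -0.20 and did not pass (adjusted p = 0.0592, and 0.233 with lengths over all coding transcripts). The call on Sdha before the correction was also lost when either of trametinib hearts 1 and 3 or of vehicle hearts 1 and 2 was left out, with an adjusted p of up to 0.101.

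Within each heart, log2 Sdha stood above the mean of Sdhb, Sdhc and Sdhd by 1.35, 1.33 and 1.41 in trametinib hearts 1, 2 and 3, against 0.92, 0.86 and 0.95 in vehicle hearts 1, 2 and 3. The difference between groups was 0.45 before the correction, beyond the spread within them, and fell to 0.15 after it (0.26 with lengths over all coding transcripts). A two-sided exact permutation test gave p = 0.1, the smallest that 3 against 3 hearts allows. The 4 transcripts differ in length, with Sdha at 2900 nucleotides and Sdhb at 1142. Sdhaf1 helps to insert the iron-sulfur clusters of Sdhb, and Sdhaf2 attaches the flavin to Sdha. Both assembly factors had lower values than the 4 subunit genes. Sdhaf1 had 382, 347 and 317 in the trametinib hearts, against 581, 556 and 521 in the vehicle hearts. Sdhaf2 had 1274, 1189 and 1184 in the trametinib hearts, against 1486, 1487 and 1494 in the vehicle hearts. Both kept their difference after the correction, at -0.60 for Sdhaf1 and -0.34 for Sdhaf2, against -0.67 and -0.29 before it.

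The 9 members that encode complex III subunits were all lower. The 4 core genes had a median log2 fold change of -0.71 before and -0.36 after the correction, and all 4 remained lower after it. Cyc1 encodes cytochrome c1, the haem protein that donates electrons to cytochrome c. It had 13820.4, 14132 and 13596 in the trametinib hearts, against 23372, 23575 and 22585 in the vehicle hearts, a log2 fold change of -0.74 ± 0.05 (SE, adjusted p = 0.000183). Uqcrfs1, the Rieske iron-sulfur protein, had 15683, 16726 and 15847 in the trametinib hearts, against 28449.5, 29653 and 26119 in the vehicle hearts. Its log2 fold change was -0.80 ± 0.06 (SE, adjusted p = 0.000269). After the correction Cyc1 stood at -0.38 and Uqcrfs1 at -0.44.

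Uqcrc1 and Uqcrc2, the large core proteins on the matrix side, differed less. Uqcrc1 had 20656, 21822 and 21053 in the trametinib hearts, against 34494, 34681 and 32319 in the vehicle hearts. Uqcrc2 had 20237, 21076 and 20341.0 in the trametinib hearts, against 27741, 29224 and 25480.2 in the vehicle hearts. The log2 fold changes were -0.68 for Uqcrc1 and -0.42 for Uqcrc2, and -0.34 and -0.23 after the correction. With lengths taken over all coding transcripts, the call on each of these genes was lost, at an adjusted p of 0.236 for Uqcrc1 and 0.108 for Uqcrc2.

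The 5 small subunits of complex III, which carry no redox centre, had a larger median log2 fold change of -0.91 before the correction and -0.04 after it. Uqcr10, a small subunit next to the Rieske protein, had 4499.9, 5587 and 4227 in the trametinib hearts, against 9948, 11225 and 9115 in the vehicle hearts. The log2 fold change of Uqcr10 was -1.09 ± 0.12 (SE, adjusted p = 0.000508), and -0.17 after the correction (adjusted p = 0.0828). Uqcr11 had 4303, 5149 and 4531 in the trametinib hearts, against 9102, 9850.5 and 8347 in the vehicle hearts. Uqcrb had 5324, 6407 and 5153 in the trametinib hearts, against 9295, 10764 and 8928 in the vehicle hearts. Uqcrh, the acidic hinge protein at which cytochrome c docks, had 8935, 11189 and 8878 in the trametinib hearts, against 16350.2, 18369.8 and 14896 in the vehicle hearts. In all 3 genes trametinib heart 2 was the highest of its group and still below the lowest vehicle heart. Uqcr11, Uqcrb and Uqcrh stood at -0.97, -0.78 and -0.78 before the correction and at -0.041, -0.0089 and 0.00997 after it. Uqcrq, a small subunit that sits with cytochrome b in the membrane, kept its call. Its values were 8053, 9928 and 8105 in the trametinib hearts, against 16584, 17485 and 14791 in the vehicle hearts. Uqcrq was at -0.91 before and -0.58 after the correction (adjusted p = 0.00594), and its listed transcripts average 1521 nucleotides, against 434 to 547 for the other small subunits.

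Within each heart, the mean log2 level of the small subunits minus that of the core subunits was -1.55, -1.32 and -1.56 in trametinib hearts 1, 2 and 3, against -1.26, -1.15 and -1.28 in vehicle hearts 1, 2 and 3. All 3 trametinib values lay below the vehicle values (two-sided exact permutation test, p = 0.1, the smallest possible). The direction turned after the correction, with -1.28, -1.22 and -1.27 in trametinib hearts 1, 2 and 3, against -1.44, -1.47 and -1.43 in vehicle hearts 1, 2 and 3 (p = 0.1 again by the exact test). The order of small and core subunits thus depends on how transcript length is treated. Cycs, somatic cytochrome c, which also serves in apoptosis once released from mitochondria, had 24705, 27769 and 24684 in the trametinib hearts, against 33113, 35963 and 31391 in the vehicle hearts. Cycs was at -0.38 ± 0.08 (SE, adjusted p = 0.00548) and at -0.45 after the correction. Hccs, the enzyme that attaches haem to cytochrome c, did not pass the test before or after the correction, at -0.14 (adjusted p = 0.0947) and -0.075 (adjusted p = 0.342). With lengths over all coding transcripts Hccs was at -0.18 and passed (adjusted p = 0.0391).

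The 15 members that encode subunits of the ATP synthase were all lower. The median log2 fold change was -0.93, and after the correction it was -0.26, with 8 of the 15 lower. The catalytic head holds the alpha and beta subunits, the most abundant transcripts among the members. Atp5b, the catalytic beta subunit, had 99377, 109797 and 103106 in the trametinib hearts, against 144792, 148271 and 137377 in the vehicle hearts. Atp5a1, the alpha subunit, had 106113, 113955 and 110481 in the trametinib hearts, against 142223, 143963 and 136293 in the vehicle hearts. Neither gene's groups overlapped, and the log2 fold changes were -0.46 ± 0.07 for Atp5b (SE, adjusted p = 0.00168) and -0.35 ± 0.06 for Atp5a1 (adjusted p = 0.00375). After the correction they stood at -0.25 (adjusted p = 0.0675) and -0.28 (adjusted p = 0.0384). With lengths over all coding transcripts both passed, Atp5b at -0.40 (adjusted p = 0.0129) and Atp5a1 at -0.41 (adjusted p = 0.0113). Under quantile normalization Atp5a1 was at -0.07 and did not pass.

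The central stalk, which turns inside the head, is formed by the gamma, delta and epsilon subunits. Atp5e, the epsilon subunit, had the largest difference of all 34 genes. Its values were 3796, 4839 and 3798 in the trametinib hearts, against 11610.1, 12914 and 10080.1 in the vehicle hearts. The lowest vehicle heart was above all 3 trametinib hearts by more than the full range within the trametinib group. The log2 fold change was -1.48 ± 0.12 (SE, adjusted p = 0.000272), a level 64.1% lower, and -0.56 after the correction (adjusted p = 0.00182). Atp5d, the delta subunit, had 10751, 10861 and 10849 in the trametinib hearts, against 16343, 16257 and 15687 in the vehicle hearts. Atp5d stood at -0.57 before and 0.023 after the correction (adjusted p = 0.759). Atp5c1, the gamma subunit, had 23463, 27555 and 23731 in the trametinib hearts, against 32356, 36957 and 30614.7 in the vehicle hearts. It stood at -0.42 before and -0.08 after the correction (adjusted p = 0.573).

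The c ring is the rotor that the protons turn. Mammals encode the same mature c subunit in 3 nuclear genes, Atp5g1, Atp5g2 and Atp5g3, whose import sequences differ. The last 228 coding bases of each are shown to make clear how far the reads of the 3 genes can be told apart. They were read from the GENCODE M21 transcripts on GRCm38, at chr11:96072990-96075619 for Atp5g1, chr15:102662864-102671127 for Atp5g2 and chr2:73908447-73911326 for Atp5g3 (transcript bounds, all on the minus strand). They are written 5′ to 3′, and capitals mark positions at which the 3 genes are not all alike.
Atp5g1: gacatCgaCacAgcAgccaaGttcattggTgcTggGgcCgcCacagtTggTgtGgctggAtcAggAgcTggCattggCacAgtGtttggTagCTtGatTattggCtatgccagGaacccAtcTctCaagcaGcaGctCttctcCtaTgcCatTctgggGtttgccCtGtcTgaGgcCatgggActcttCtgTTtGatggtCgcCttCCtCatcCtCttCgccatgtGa
Atp5g2: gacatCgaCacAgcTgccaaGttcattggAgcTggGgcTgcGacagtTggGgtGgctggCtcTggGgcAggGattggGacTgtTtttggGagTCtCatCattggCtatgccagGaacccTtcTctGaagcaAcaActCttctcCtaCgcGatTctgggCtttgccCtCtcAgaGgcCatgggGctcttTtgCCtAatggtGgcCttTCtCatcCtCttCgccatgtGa
Atp5g3: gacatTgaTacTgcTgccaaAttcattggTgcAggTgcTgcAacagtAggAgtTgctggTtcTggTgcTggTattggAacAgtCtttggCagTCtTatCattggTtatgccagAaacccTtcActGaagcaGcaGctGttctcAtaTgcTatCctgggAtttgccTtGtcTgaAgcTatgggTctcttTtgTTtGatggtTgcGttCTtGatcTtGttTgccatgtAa

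Of the 228 positions 58 vary, and 52 of these are the third base of a codon. Atp5g1 and Atp5g2 differ at 34 positions, Atp5g1 and Atp5g3 at 46, and Atp5g2 and Atp5g3 at 49. The longest run of identical bases shared by any pair of the full transcripts is 21, well under the 75 cycles of a read. Atp5g2 is a different case, since 86.9% of its 75-base runs also occur in transcripts of other genes in the annotation, so its level is uncertain.

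Atp5g3, the most abundant of the c-ring genes, had 19174, 20753 and 19073 in the trametinib hearts, against 42448, 44733 and 40024 in the vehicle hearts. Its log2 fold change was -1.11 ± 0.07 (SE, adjusted p = 0.000183) and -0.44 after the correction (adjusted p = 0.00156). Atp5g1 had 8795, 9535 and 8901 in the trametinib hearts, against 17485, 18619 and 16908 in the vehicle hearts. Its log2 fold change was -0.96 ± 0.06 (SE, adjusted p = 0.000183) and -0.91 after the correction, a value that rests on a mean over a short and a long transcript. Atp5g2 had 2914, 3283 and 2929 in the trametinib hearts, against 4976, 5595 and 4953 in the vehicle hearts. Atp5g2 was at -0.77 ± 0.07 (SE, adjusted p = 0.000383) and at -0.06 after the correction (adjusted p = 0.421).

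The shares of the 3 genes in the summed c-ring signal differed between groups, but 2 of the 3 directions turned with the correction. As deposited, Atp5g3 gave 62.1%, 61.8% and 61.7% of the summed c-ring signal in trametinib hearts 1, 2 and 3, against 65.4%, 64.9% and 64.7% in vehicle hearts 1, 2 and 3. The share of Atp5g2 was 9.43%, 9.78% and 9.48% in the trametinib hearts, against 7.67%, 8.11% and 8.003% in the vehicle hearts. The share of Atp5g1 was 28.5%, 28.4% and 28.8% in the trametinib hearts, against 26.9%, 27.01% and 27.3% in the vehicle hearts. The mean shares differed by -3.11 percentage points for Atp5g3, 1.64 for Atp5g2 and 1.47 for Atp5g1. The groups did not overlap for any of the 3 shares (two-sided exact permutation test, p = 0.1 each, the smallest possible). After the correction Atp5g3 gave 66.3%, 63.8% and 66.3% in trametinib hearts 1, 2 and 3, against 61.9%, 59.3% and 61.99% in vehicle hearts 1, 2 and 3. Atp5g1 then gave 23.7%, 25.8% and 23.5% in the trametinib hearts, against 30.95%, 33.3% and 30.5% in the vehicle hearts. The mean shares thus differed by 4.40 points for Atp5g3 and -7.27 for Atp5g1 after the correction, both against their direction as deposited. The correction took Atp5g1 at a mean length of 2655.5 nucleotides (2665.5 over all coding transcripts), against 718.5 for Atp5g3. The Atp5g1 transcript whose coding bases are printed has 596 nucleotides, and the shares were not tested with that length. The share of Atp5g2 kept its direction, with a difference of 2.87 points, and its level is the uncertain one.

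**Figure D4:**
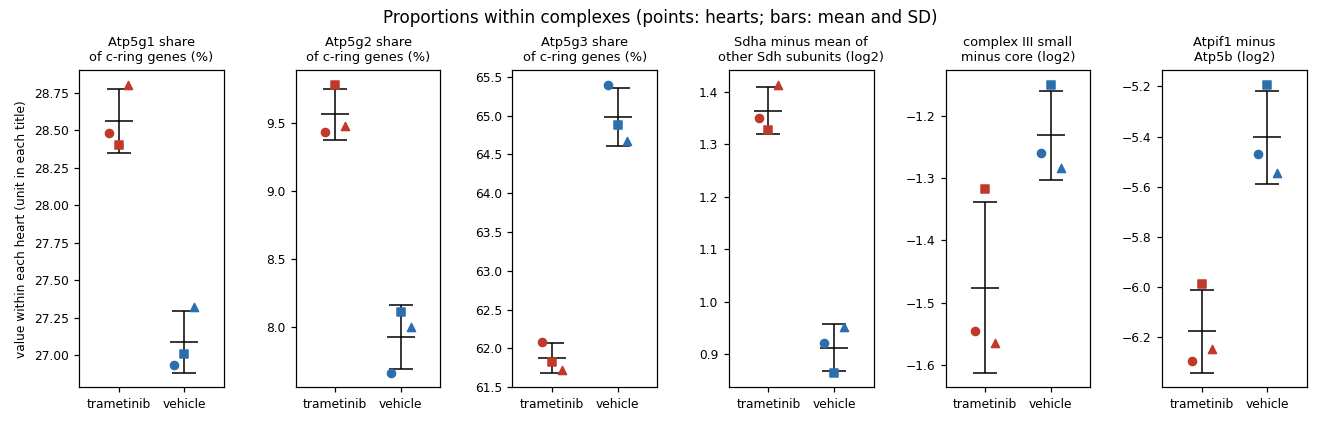
Within-heart proportions in trametinib hearts (red, left in each panel) and vehicle hearts (blue, right), in percent for the c-ring shares and in log2 units for the differences between subunits, with 1 point per heart and bars at the mean and SD. The axes do not start at 0. The Atp5g3 share sits between 61.7% and 62.1% in the trametinib hearts and between 64.7% and 65.4% in the vehicle hearts, and the points of the groups overlap in none of the panels, all drawn before the correction for transcript length.

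The peripheral stalk holds the head still against the rotor. All 4 of its genes were lower, at a median of -0.74 on the log2 scale before and -0.23 after the correction. Atp5j, coupling factor 6, had 8105, 9729 and 7819 in the trametinib hearts, against 16492, 18823 and 14982 in the vehicle hearts. Atp5j was at -0.97 ± 0.11 (SE, adjusted p = 0.000572) and at -0.31 after the correction (adjusted p = 0.0286). Atp5f1, the b subunit, had 16721, 18757 and 17028 in the trametinib hearts, against 25475, 27319 and 24614 in the vehicle hearts. It was at -0.56 before and -0.27 after the correction, again lower in both. Atp5h, the d subunit, had 5710.0, 7139 and 5852 in the trametinib hearts, against 11468, 13319 and 10783 in the vehicle hearts. Its difference was -0.93 before and -0.20 after (adjusted p = 0.0664). With lengths over all coding transcripts Atp5h was at -0.22 and passed (adjusted p = 0.0423). Atp5o, the oligomycin sensitivity-conferring protein that ties the stalk to the head, had 12649, 14770.4 and 13083 in the trametinib hearts, against 19419, 21209.6 and 18393 in the vehicle hearts. No values overlapped, and the log2 fold change was -0.54 before and 0.081 after (adjusted p = 0.363).

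The small membrane subunits e, f and g, encoded by Atp5k, Atp5j2 and Atp5l, take part in joining ATP synthases into the dimers that bend the cristae. Atp5j2 had 6623, 8311 and 6678 in the trametinib hearts, against 14891, 16949 and 13482 in the vehicle hearts. Atp5j2 was at -1.07 ± 0.11 (SE, adjusted p = 0.00048) and at -0.53 after the correction (adjusted p = 0.00617). Atp5l had 6958, 8673 and 6578 in the trametinib hearts, against 14661, 17341 and 13284 in the vehicle hearts. Atp5l was at -1.03 before and -0.26 after the correction (adjusted p = 0.0367). Atp5k had 4051, 5230.5 and 4109 in the trametinib hearts, against 8899, 9445 and 8296 in the vehicle hearts. With transcripts of 371 nucleotides, the shortest among the members, Atp5k was at -1.0 before and -0.04 after the correction (adjusted p = 0.632).

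Atpif1 encodes the inhibitor that binds the catalytic head and stops it from running backwards, as it does when the membrane potential falls. Its values were 1266, 1731 and 1357 in the trametinib hearts, against 3268, 4051 and 2942 in the vehicle hearts. The log2 fold change was -1.24 ± 0.15 (SE, adjusted p = 0.000725), a level 57.6% lower, and -0.42 after the correction (adjusted p = 0.0197). Log2 Atpif1 minus log2 Atp5b, the inhibitor against the subunit it binds, was -6.29, -5.99 and -6.25 in trametinib hearts 1, 2 and 3, against -5.47, -5.19 and -5.54 in vehicle hearts 1, 2 and 3. The mean was lower by 0.77 in the trametinib hearts, with no overlap (two-sided exact permutation test, p = 0.1, the smallest possible). After the correction this difference shrank to -0.17, still with no overlap, and with lengths over all coding transcripts to -0.031, with the groups overlapping (exact p = 0.6). Atp5s and Atp5sl carry Atp5 symbols in the table but are named Dmac2l and Dmac2 in RefSeq. Atp5s had 496, 597 and 508 in the trametinib hearts, against 794, 898 and 780.2 in the vehicle hearts. Atp5sl had 1001, 1038 and 1022 in the trametinib hearts, against 1557, 1407 and 1459 in the vehicle hearts. They were at -0.63 for Atp5s and -0.53 for Atp5sl, and at -0.32 and -0.29 after the correction, lower in both fits. With lengths over all coding transcripts the call on Atp5s was lost (adjusted p = 0.0861).

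Levels were compared between genes as signal per kilobase of mean transcript length. Atp5b was highest, at 51867 to 57305 per kilobase in the trametinib hearts, against 71700.0 to 77386 in the vehicle hearts. Atp5a1 followed in the trametinib hearts, at 42943 to 46117 per kilobase, against 55157 to 58261 in the vehicle hearts. Atp5g3 had 26546 to 28884 per kilobase in the trametinib hearts, against 55706 to 62259 in the vehicle hearts. Atp5g3 and Atp5a1 thus overlapped in the vehicle hearts, while in the trametinib hearts Atp5a1 stood above Atp5g3 with no overlap. These levels are before the correction, and the order after it was not tested. The log2 fold change was -1.11 for Atp5g3 and -0.35 for Atp5a1 before the correction, and -0.44 and -0.28 after it. At the other end, Sdhaf1 had 127 to 153 per kilobase in the trametinib hearts, against 209 to 233 in the vehicle hearts.

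Reads from some members could also be placed in related genes. In 12 of the 34 genes at least 1 run of 75 bases occurred in a transcript of another gene of the annotation, and in 7 of them over 10% of runs did so. After Atp5g2, the share was 63.4% for Atp5l, 40.3% for Atp5h, 29.1% for Uqcrb, 26.1% for Cycs, 15.4% for Atp5f1 and 10.2% for Atp5o, and the levels of these genes are uncertain to that degree. The other 22 genes shared no such run.

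Promoters were read because genes of this kind are known targets of NRF1, ETS-family factors such as GABP, YY1 and oestrogen-related receptors (ERR). RefSeq promoter windows on GRCm38.p6, from 250 bases before to 50 after the start, matched 28 of the 34 genes and gave 32 promoters. On either strand, the NRF1 motif occurred in 10 of 32 promoters (31.2%), against 9.25% of 13671 promoters of tested genes and 4.60% of all 32851 promoters of this length. The ETS motif CCGGAAG occurred in 11 (34.4%), against 16.1% in tested genes and 8.86% in all. The YY1 motif AAGATGGCG occurred in 4 (12.5%), against 2.74% and 1.40%. These 4 belong to 3 genes, since overlapping promoters of Atp5sl hold the same site. The ERR motif TCAAGGTCA and the cyclic AMP response element (CRE) TGACGTCA occurred in 2 promoters each (6.25%), against 0.263% and 2.85% of promoters of tested genes. The SP1 motif GGGGCGGGG occurred in 6 (18.8%), against 20.8% in tested genes. These are matches of letters, not measured binding.

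A match for each of 5 genes at the ends of the range of differences, or with a rarer motif, is printed 5′ to 3′ on the strand of the gene, with the motif in capitals. They lie at chr2:174464177-174464223 for Atp5e, chr2:73911350-73911398 for Atp5g3, chr4:132535526-132535575 for Atpif1, chr6:50566711-50566758 for Cycs and chr13:74350266-74350315 for Sdha, all on the minus strand of GRCm38.p6.
Atp5e, ETS: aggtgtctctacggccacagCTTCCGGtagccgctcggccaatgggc
Atp5g3, ERR: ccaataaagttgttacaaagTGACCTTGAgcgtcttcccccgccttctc
Atpif1, NRF1: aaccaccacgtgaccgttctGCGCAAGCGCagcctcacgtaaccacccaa
Cycs, CRE: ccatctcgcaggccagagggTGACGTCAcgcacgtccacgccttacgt
Sdha, NRF1: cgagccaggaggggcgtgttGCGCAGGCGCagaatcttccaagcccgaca

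Atp5e and Atpif1, with the largest differences, and Sdha, with the smallest, all held such matches, and Sdha held 3 for NRF1. The factors named above were measured as transcripts in a list of 12 regulators of respiratory chain genes. Of these 12, 7 were higher and 1, Tfam, was lower, beside 21.6% higher and 22.8% lower over all genes, and the median log2 fold change was 0.36. Esrrg, an oestrogen-related receptor abundant in heart, had 1879, 1884 and 2005 in the trametinib hearts, against 1287, 1451 and 1346 in the vehicle hearts. Its log2 fold change was 0.50 ± 0.07 (SE, adjusted p = 0.00102). Yy1 was at 0.38 (adjusted p = 0.00156) and Sp1 at 0.57 (adjusted p = 0.00197). Tfam, the factor that packages and transcribes mitochondrial DNA, was at -0.35 (adjusted p = 0.00816) and was named after its value was seen. After the correction Esrrg, Yy1 and Sp1 stood at 0.21, 0.044 and 0.13 and none of them passed (adjusted p = 0.0515, 0.657 and 0.223). After this correction 3 of the 12 were higher and 1 was lower, beside 15.3% and 13.9% over all genes. The 3 higher genes, named after their values were seen, were Nrf1 at 0.40 (adjusted p = 0.0105), Esrra at 0.25 (adjusted p = 0.0219) and Ppargc1b at 0.60 (adjusted p = 0.0321). Tfam was lower at -0.54. With lengths over all coding transcripts 6 of the 12 were higher and 1 was lower, beside 17.9% and 15.5%. Esrrg at 0.23 (adjusted p = 0.0431) and Sp1 at 0.59 (adjusted p = 0.00184) then passed, while Yy1 at 0.0031 did not (adjusted p = 0.977).

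Genes that serve the same complexes without carrying the names used by the rule were also mostly lower. The shares over all genes tested were 22.8% lower and 21.6% higher before the correction, and 13.9% and 15.3% after it. All 5 genes listed for ATP synthase assembly and association were lower, among them Usmg5 at -1.57 ± 0.17 (SE, adjusted p = 0.00048) and 2010107E04Rik at -1.14 ± 0.13 (adjusted p = 0.000527), named Atp5md and Atp5mpl in RefSeq, which are small membrane subunits of the enzyme. Usmg5 had 889, 1202 and 805 in the trametinib hearts, against 2777, 3349.8 and 2444 in the vehicle hearts. The assembly factor Atpaf1 was at -0.41 (adjusted p = 0.00106). After the correction 3 of the 5 were lower, with Usmg5 at -0.66, 2010107E04Rik at -0.23 and Atpaf1 at -0.31. With lengths over all coding transcripts 4 of the 5 were lower, but the call on Atpaf1 was lost, at -0.16 (adjusted p = 0.0589). Among 6 further assembly genes of complexes II and III, 3 were lower, 1 was higher and 2 did not pass. 1110058L19Rik, named Sdhaf4 in RefSeq, which assists the maturation of Sdha, was at -1.29 ± 0.13 (SE, adjusted p = 0.000399). Uqcc, which supports the assembly of cytochrome b, was at -0.47 (adjusted p = 0.000448), and Acn9, named Sdhaf3 in RefSeq, was at -0.69 (adjusted p = 0.00663). After the correction these 3 stood at -0.63, -0.42 and -0.90, all lower. Ttc19 was the higher one, at 0.18 (adjusted p = 0.0497), named after its value was seen, and its call was lost when single hearts were left out, at an adjusted p of up to 0.136.

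Coenzyme Q carries the electrons from complex II to complex III. Of 13 genes of its synthesis, 10 were lower, none was higher and 3 did not pass, beside 22.8% lower and 21.6% higher over all genes. The list's median was -0.52 on the log2 scale, and 4 genes were lower after the correction, beside 13.9% over all genes. Coq9, a lipid-binding protein of the synthesis complex, had 8236, 8587 and 8431 in the trametinib hearts, against 14259.9, 14136 and 13118 in the vehicle hearts, a log2 fold change of -0.72 (adjusted p = 0.000245). Coq6 and Adck3, named Coq8a in RefSeq, were both at -0.52. After the correction Coq9, Coq6 and Adck3 were still lower, at -0.44, -0.19 and -0.64. With lengths over all coding transcripts the call on Adck3 was lost, at -0.13 (adjusted p = 0.183). All 3 carriers that supply the ATP synthase with ADP and phosphate were lower. The phosphate carrier Slc25a3 was at -0.76 ± 0.06 (SE, adjusted p = 0.000245), and the adenine nucleotide carriers Slc25a4 and Slc25a5 were at -0.52 and -0.26. After the correction Slc25a3 and Slc25a4 were lower, at -0.47 and -0.31, while Slc25a5 stood at 0.15 and did not pass (adjusted p = 0.0831). Of 8 tested genes of the cristae-shaping MICOS machinery and its partners, 5 were lower, 1 was higher and 2 did not pass. Minos1, named Micos10 in RefSeq, was at -0.81 (adjusted p = 0.000782), Apoo at -0.55 and Apool at -0.64. Opa1, the fusion protein of the inner membrane, was the higher one, at 0.28 (adjusted p = 0.00367), named after its value was seen. After the correction 1 of the 8 was lower and none was higher, beside 13.9% and 15.3% over all genes. The lower one was Minos1 at -0.75 (adjusted p = 0.0044). Apoo at -0.072, Apool at -0.18 and Opa1 at 0.028 then did not pass (adjusted p = 0.405, 0.1 and 0.664). With lengths over all coding transcripts 3 were lower and 1 was higher, beside 15.5% and 17.9% over all genes. The higher one was then Chchd3 at 0.26 (adjusted p = 0.0142), named after its value was seen. Chchd3 stood at -0.099 before the correction (adjusted p = 0.245). Opa1 at 0.075 did not pass in that fit (adjusted p = 0.226).

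**Figure D5:**
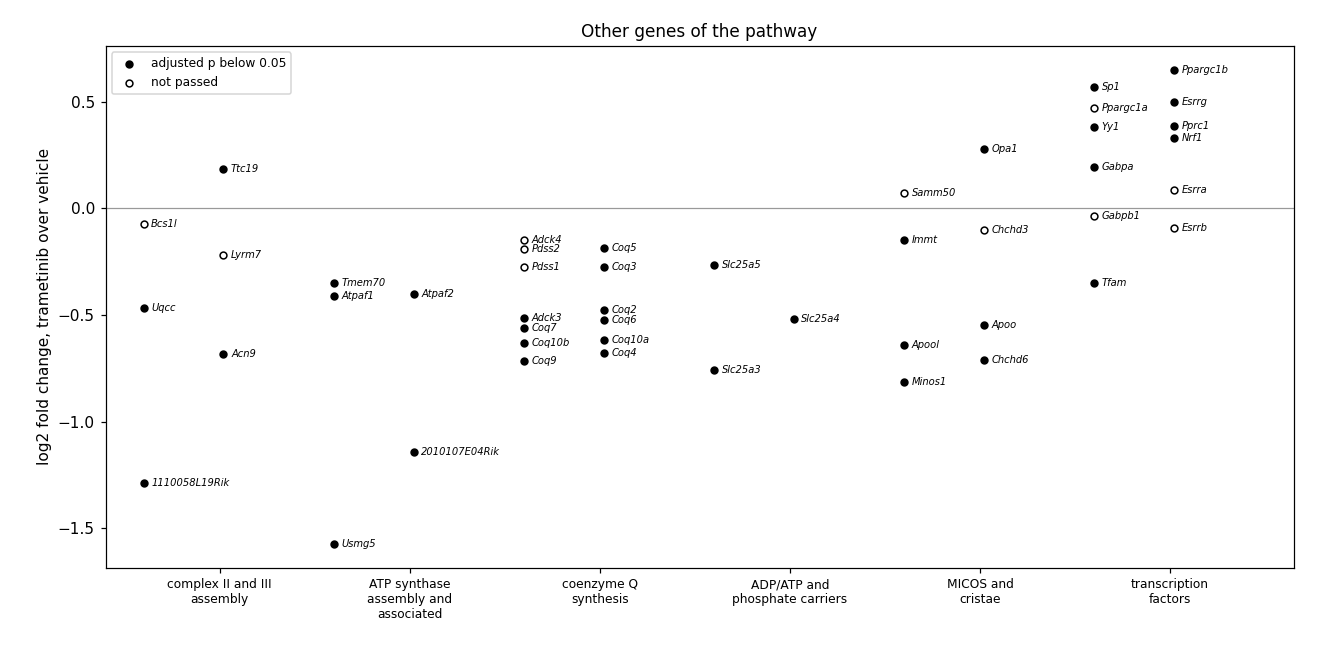
Log2 fold changes, trametinib over vehicle (y axis), of related genes outside the 34, grouped by list (x axis), with 1 point per gene, filled where the adjusted p was below 0.05 and open where it was not. All points for ATP synthase assembly, coenzyme Q synthesis and the carriers lie below 0, and the 12 transcription factors have a median of 0.36, all before the correction for transcript length.

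The makeup of the tissue was read from marker lists. Counts are given before the correction unless stated, beside 22.8% lower and 21.6% higher over all genes. All 13 cardiomyocyte markers were present in every heart, 7 were lower and 4 higher, and their summed signal was 2651897 to 2773447 in the trametinib hearts, against 2758754 to 2846231 in the vehicle hearts. Of 5 tested erythroid markers 4 were higher, with a sum of 54941 to 194142 in the trametinib hearts, against 19814 to 27341 in the vehicle hearts. Of 8 tested neutrophil markers 7 were higher, with a sum of 1654 to 3631 in the trametinib hearts, against 168 to 616 in the vehicle hearts. Of 7 fibroblast markers 4 were lower and 1 was higher, with sums of 30477 to 34264 in the trametinib hearts, against 32557 to 42801 in the vehicle hearts. Of the 6 macrophage markers 3 were lower and none was higher, and of the 6 endothelial markers 2 were lower and 2 higher. Of 2 tested brown adipocyte markers 1 was lower and none higher, and the summed signal of the list was 362 to 394 in the trametinib hearts, against 448 to 488 in the vehicle hearts. In that list Ucp1, which defines brown fat, was at 0 in 5 of the 6 hearts, while Cidea and Adipoq were above 0 in all 6. The skeletal muscle list had 2 lower and 1 higher of 4 tested genes. After the correction 2 of the 13 cardiomyocyte markers were lower and 3 higher, beside 13.9% and 15.3% over all genes. The counts were then 4 higher for erythroid, 7 higher for neutrophil, and 5 lower and 1 higher for fibroblast markers. Of macrophage markers 2 were lower, of endothelial markers 1 was lower, and of brown adipocyte markers none was lower or higher. The skeletal muscle list kept 2 lower and 1 higher. The part of these marker differences in the members' levels was not tested.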

How the data were processed

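Messenger RNA of 3 trametinib and 3 vehicle hearts was measured. The deposited table holds normalized signal, made by the authors from estimated counts with a scaling factor for each library. The values themselves show this, with 87.5% to 89.4% of low values within 0.05 of a whole multiple of the library's step. The submitters' processing notes name mm9, Picard 1.64, SAMtools, DESeq2 and RSEM without role or order. Neither aligner nor annotation is given in the sources used here. The values of 1 further column, which no sample label matches, were left out.

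limma 3.58.1 (R 4.3.3, trend) was run on log2(value + 1) for genes averaging at least 10, with Benjamini-Hochberg adjustment over all genes tested and a threshold of 0.05. The pseudocount of 1 slightly understates fold changes of low genes. Within-heart proportions were compared by two-sided exact permutation tests (scipy 1.17.1). Transcript length and GC content came from GENCODE M21 (GRCm38), as means over transcripts with a RefSeq mRNA record, available for 99.2% of tested genes, and a lowess trend (span 0.3) was subtracted per heart. The fit was tested on simulated data. Both the members and the lists were chosen with earlier results of these data known. All members are named or counted, and at most the 3 genes of smallest p in each further list are named, unless stated. Alternatives changed the pseudocount, filter, scaling, correction, replicate block and hearts included.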

Additional observations from a re-analysis of the deposited data

How the results depend on the processing

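The median log2 fold changes depended most on transcript length. With the length and GC correction the count of lower members was 21 of 34, and the medians were -0.29 over all members, -0.27 for complex II, -0.23 for complex III and -0.26 for the ATP synthase. 4 genes changed sign, all without passing: Uqcrh to 0.00997, Atp5d to 0.023, Atp5o to 0.081 and Sdhb to 0.081. With the replicate block and this correction together, the medians and these 4 values were the same (-0.29, -0.27, -0.23 and -0.26). In that fit 24 members were lower, beside 11.1% lower and 12.7% higher over all genes. With lengths over all coding transcripts, an alternative chosen after seeing the data, 20 members were lower, with medians of -0.26, -0.30, -0.15 and -0.30 in the same order, and Atp5k was at 0.044, Uqcrh at 0.042 and Atp5o at 0.15. Within hearts, 3 proportions changed direction with the length and GC correction and with lengths over all coding transcripts, both also chosen after seeing the data for these: the Atp5g1 share to -7.27 and -7.96 points, the Atp5g3 share to 4.40 and 4.56 points, and complex III small against core subunits to 0.19 and 0.14. The cause was not tested.

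No other alternative changed a direction. The count of lower members was 33 with no filter (Sdha adjusted p = 0.0527), with median-of-ratios scaling (Sdha, 0.113) and with quantile normalization (Atp5a1, 0.417), and 34 with pseudocounts of 0.5 and 10, a minimum mean of 50 and voom on estimated reads. In these settings 2918 to 3133 genes were lower and 2813 to 3159 higher, of 11741 to 17388 genes tested. Leaving out 1 heart at a time gave 33 to 34 lower members, with medians of -0.79 to -0.70 over all members, -0.63 to -0.54 for complex II, -0.88 to -0.73 for complex III and -0.997 to -0.84 for the ATP synthase. Beside these, 2491 to 2856 genes were lower and 2143 to 2804 higher, of 13519 to 13615 tested. The c-ring share differences then ran from 1.35 to 1.59 points for Atp5g1, 1.51 to 1.73 for Atp5g2 and -3.26 to -2.90 for Atp5g3. The log2 differences ran from 0.43 to 0.47 for Sdha against its partners, -0.32 to -0.20 for complex III and -0.87 to -0.67 for Atpif1 against Atp5b.

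With the replicate block 34 members were lower, beside 2877 lower and 2885 higher of 13581 genes tested. Deviations of same-numbered hearts correlated at 0.24, 0.02 and 0.50 across genes, and trametinib heart 2 correlated best with vehicle heart 1 (0.28), so the numbers were not taken to pair the hearts. With 3 hearts a group, exact tests could not go below p = 0.1, and the fewer estimated reads of the vehicle hearts limit the low genes most.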
